A study of Mus musculus with 12 samples.

Results

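The genes described here are markers and regulators of the stem cells of the small intestine: Lgr5, Olfm4, Ascl2, Smoc2, Axin2, Rnf43, Znrf3, Sox9, Prom1 and Tnfrsf19. They were chosen by name, from the established crypt stem cell and Wnt feedback genes. Of these 10 genes, 9 had at least 1 probe on the array, against 22905 named genes in all, and all 9 passed the filter on dim probes. No probe was matched to Olfm4, so no level is given for it. The 9 genes had 16 probes, of which 15 passed the filter, and the brightest probe stood for each gene.

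The measurements come from the duodenum of 12 male mice on 12 single-colour Agilent mouse arrays, with 3 arrays in each of 4 groups. The groups were Akp3-/- mice given IIAEK, a pentapeptide written in single-letter amino acid code, Akp3-/- mice given vehicle, wild-type mice given IIAEK and wild-type mice given vehicle. All mice were 7 weeks old at the start, were dosed by mouth once daily for 14 days and were fasted for 8 h before collection. IIAEK was given at 600 mg per kg body weight per day in the vehicle, a solution of sodium carboxymethylcellulose at 5 g/L that the controls received alone. Akp3 encodes an intestinal alkaline phosphatase of the duodenal brush border, and the labels call these animals IAP knockout mice. The sources used here do not state how the allele was made or the strain of the mice. The titles give 14 days for every group, but the source labels of all IIAEK samples, in both genotypes, write weeks, with a number that differs among the knockout replicates, while those of the vehicle samples write days. The days of the titles were used, and this doubt touches every IIAEK comparison. The labels do not say that the replicates came from separate litters or housing, so p-values measure the spread between these 12 samples. The design asks whether the peptide alters duodenal expression and whether the response depends on Akp3.

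Stem cells at the crypt base divide continuously and replace the villus epithelium. Wnt ligands bind Frizzled receptors and their co-receptors, and R-spondins bound to Lgr5 and its relatives strengthen the signal by removing the ubiquitin ligases Rnf43 and Znrf3, which otherwise clear Frizzled from the cell surface. The signal ends in beta-catenin and TCF/LEF factors, which switch on Ascl2, Axin2, Lgr5 and the ligases themselves. Notch signalling, acting through Rbpj, keeps neighbouring crypt cells undifferentiated, and Olfm4 is a Notch-responsive gene of these cells.

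RefSeq promoter windows of assembly GRCm38.p6, each from 250 bases before to 50 bases after a start of transcription, were found for 6 of the 10 genes (Olfm4, Ascl2, Axin2, Rnf43, Prom1 and Tnfrsf19), in 9 windows. The windows were searched on both strands for the TCF/LEF core CTTTGA, held by 16% of all 32851 windows of 300 bases, and for the Rbpj core TGGGAA, held by 25.6%. No window of these genes held more than 1 match. The windows of Ascl2 and Axin2 are printed because both genes are classical Wnt targets, and both windows of Prom1 because its 2 probes came from different transcripts. Capitals mark a match to either core, as read on the strand printed.
Ascl2 promoter (chr7:142969215-142969514, minus strand): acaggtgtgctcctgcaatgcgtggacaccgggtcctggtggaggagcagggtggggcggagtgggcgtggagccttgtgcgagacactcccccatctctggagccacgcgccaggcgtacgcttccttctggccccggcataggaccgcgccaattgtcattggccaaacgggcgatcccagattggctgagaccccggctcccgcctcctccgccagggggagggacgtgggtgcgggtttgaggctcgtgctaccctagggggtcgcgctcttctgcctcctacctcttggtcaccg
Axin2 promoter (chr11:108920099-108920398, plus strand): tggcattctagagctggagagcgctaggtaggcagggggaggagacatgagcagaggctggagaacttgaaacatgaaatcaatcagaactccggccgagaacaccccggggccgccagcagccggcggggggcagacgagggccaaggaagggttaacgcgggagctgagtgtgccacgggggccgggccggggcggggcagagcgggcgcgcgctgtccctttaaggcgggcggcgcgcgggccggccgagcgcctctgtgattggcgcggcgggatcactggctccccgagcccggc
Prom1 promoter, first start (chr5:44101687-44101986, minus strand): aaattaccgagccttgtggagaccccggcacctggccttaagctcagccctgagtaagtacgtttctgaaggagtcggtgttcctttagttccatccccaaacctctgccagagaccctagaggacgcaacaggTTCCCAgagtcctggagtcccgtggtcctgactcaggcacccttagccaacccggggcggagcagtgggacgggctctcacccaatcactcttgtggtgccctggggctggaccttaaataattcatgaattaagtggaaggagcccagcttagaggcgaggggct
Prom1 promoter, second start (chr5:44094719-44095018, minus strand): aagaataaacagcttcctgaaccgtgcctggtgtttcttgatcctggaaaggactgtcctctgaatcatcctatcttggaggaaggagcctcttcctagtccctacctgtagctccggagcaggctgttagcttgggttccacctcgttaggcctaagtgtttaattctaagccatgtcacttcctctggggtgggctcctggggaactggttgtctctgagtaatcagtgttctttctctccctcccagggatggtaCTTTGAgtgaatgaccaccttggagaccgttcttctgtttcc
Neither core occurred in the Ascl2 or Axin2 window. The first Prom1 window held the Rbpj core in reverse complement at position -116, counted from the start of transcription with negative positions before it, and the second held the TCF/LEF core at position 8. Among the windows not printed, that of Olfm4 held the Rbpj core at position -12, and the second window of Tnfrsf19 held the TCF/LEF core at position -201. A match is a run of letters and was not tested for binding.

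A level below is a log2 processed intensity from which the 75th percentile of its array has been subtracted, and differences are in log2 units. A linear model (limma) with 1 mean per group was fitted to 26107 features, and a gene is called where its Benjamini-Hochberg adjusted p over all of them was below 0.05. Between 55.9% and 64.0% of probes stood clear of background on each array. The correlation of replicates across probes ran from 0.973 to 0.991. The targeted gene Akp3 lay between -4.90 and -3.80 on the 6 knockout arrays and between 1.05 and 2.72 on the 6 wild-type arrays by its first probe. The mean level of 12 villus enterocyte markers lay between 6.63 and 7.40 and that of 7 Paneth cell markers between 6.26 and 7.21 over the 12 arrays.

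Some arrays stood apart. The arrays lay on 2 slides, and 26.3% of all features were called between them with the groups in the model. Slide 2 held 1 array of knockout mice under IIAEK, 2 of knockout mice under vehicle, 1 of wild-type mice under IIAEK and 1 of wild-type mice under vehicle. The tissue composition differed too: the mean level of 10 markers of stomach and Brunner's gland was -1.80, -2.05 and 4.68 in knockout mice under IIAEK and 3.74, -0.80 and -1.68 in knockout mice under vehicle. It was -1.06, -1.61 and 5.13 in wild-type mice under IIAEK and 3.66, 3.66 and 4.12 in wild-type mice under vehicle. The mean of 16 pancreatic genes was 1.90 on the first wild-type vehicle array and between 6.78 and 8.93 on the others. The third knockout IIAEK array had the highest smooth muscle level of the 12, at 3.24, the highest level of 20 proliferation genes, at 2.12, and the lowest villus level. That array was also the highest for fibroblast (3.11), endothelial (-0.08) and enteric neuron and glia (-0.79) markers. In whole tissue, fewer stem cells and less RNA per stem cell cannot be told apart.

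None of the 9 stem cell genes was called in any of the 7 comparisons made (0% to 0.0192% of all features were). In the comparisons of 2 groups only Sox9 had arrays that did not overlap, in wild-type mice and not by its dimmer probe. The receptor Lgr5, the defining surface marker of crypt base stem cells, had levels of -0.55, -0.45 and -0.03 in knockout mice under IIAEK, against -0.69, -0.54 and -0.94 under vehicle. In wild-type mice its levels were -0.36, -0.71 and -1.17 under IIAEK, against -0.70, -0.88 and -1.04 under vehicle. The highest group mean of Lgr5 was that of knockout mice under IIAEK, -0.34 ± 0.28, followed by knockout mice under vehicle at -0.72 ± 0.20, wild-type mice under IIAEK at -0.75 ± 0.41 and wild-type mice under vehicle at -0.87 ± 0.17 (SD, n = 3 each). Every group overlapped its neighbours in that order.

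**Figure D1:**
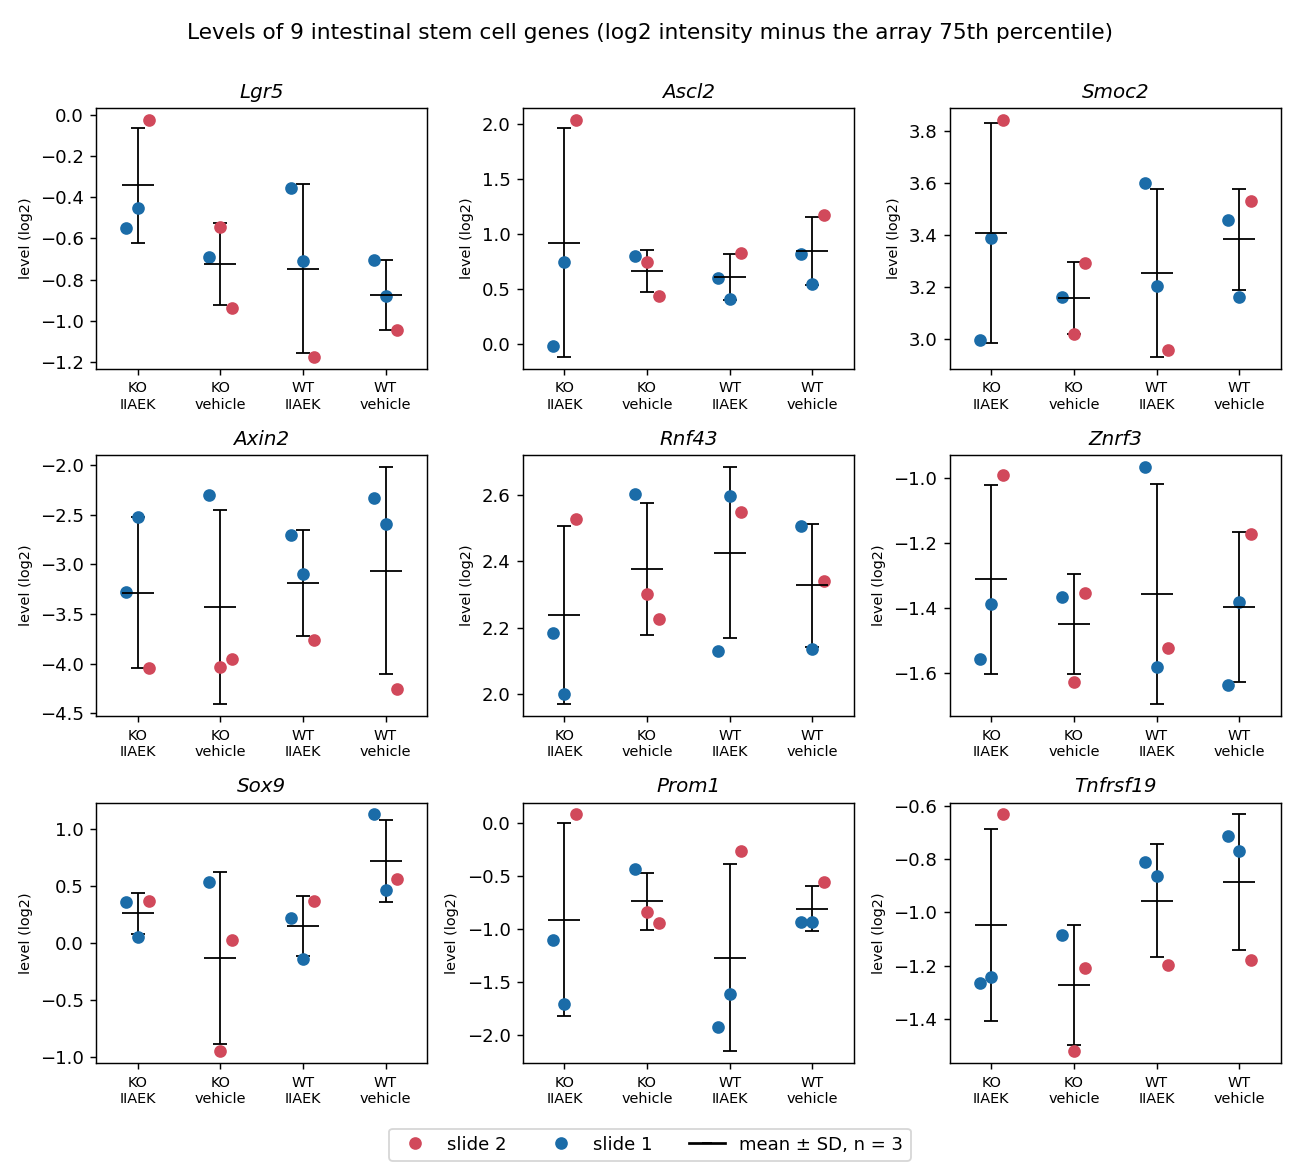
Level of each of 9 intestinal stem cell genes on each array (log2 intensity minus the array's 75th percentile, vertical axes differing between panels) in knockout (KO) and wild-type (WT) mice under IIAEK or vehicle. Points are arrays coloured by slide and bars are the mean ± SD of 3 arrays. All 5 slide 2 points of Axin2 lie below all 7 slide 1 points, and the third knockout IIAEK array is the highest of 12 for Lgr5, Ascl2, Smoc2, Prom1 and Tnfrsf19.

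Ascl2, a basic helix-loop-helix transcription factor that maintains the stem cell programme, varied most within the knockout IIAEK group. Its levels were -0.02, 0.75 and 2.03 in knockout mice under IIAEK, against 0.80, 0.75 and 0.44 under vehicle. Both the lowest and the highest Ascl2 value of the 12 arrays were in the knockout IIAEK group. Wild-type mice had 0.60, 0.41 and 0.83 under IIAEK, against 0.82, 0.55 and 1.17 under vehicle, and these groups overlapped. The spread of Ascl2 between replicates, a residual SD of 0.56, was larger than that of 87.2% of features.

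Smoc2, which encodes a secreted calcium-binding matrix protein of crypt base cells, had a smaller residual SD than Ascl2, at 0.29. It had 2.99, 3.39 and 3.84 in knockout mice under IIAEK, against 3.16, 3.02 and 3.29 under vehicle. In wild-type mice it had 3.60, 3.20 and 2.96 under IIAEK, against 3.46, 3.16 and 3.53 under vehicle. The vehicle values lay inside the range of the IIAEK values in both genotypes. A second, dimmer Smoc2 probe followed the first across the 12 arrays.

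Of the Wnt feedback genes, Axin2, a scaffold of the beta-catenin destruction complex and a common readout of Wnt activity, was dim. Its probe lay well above background on 11 of 12 arrays, all but 1 of wild-type mice under vehicle, and its second probe did not pass the filter. Its levels were -3.28, -2.52 and -4.05 in knockout mice under IIAEK, against -2.30, -4.03 and -3.95 under vehicle. In wild-type mice the Axin2 levels were -2.71, -3.09 and -3.76 under IIAEK, against -2.34, -2.60 and -4.26 under vehicle. The low values of each group were those of slide 2.

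Rnf43, a ligase that clears Frizzled, varied little. Its levels were 2.18, 2.0 and 2.53 in knockout mice under IIAEK, against 2.60, 2.30 and 2.23 under vehicle, and 2.13, 2.60 and 2.55 in wild-type mice under IIAEK, against 2.51, 2.14 and 2.34 under vehicle. All 12 Rnf43 values spanned 0.60. Its partner Znrf3 had -1.56, -1.39 and -0.99 in knockout mice under IIAEK, against -1.37, -1.63 and -1.35 under vehicle, and its 12 values spanned 0.67. In wild-type mice Znrf3 had -0.97, -1.58 and -1.52 under IIAEK, against -1.64, -1.38 and -1.17 under vehicle. For both ligases the groups overlapped.

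Sox9, a transcription factor of stem, progenitor and Paneth cells, was the gene of the 9 that differed most between groups relative to its standard error. Its levels were 0.36, 0.05 and 0.37 in knockout mice under IIAEK, against 0.54, -0.95 and 0.02 under vehicle. In wild-type mice they were 0.22, -0.14 and 0.37 under IIAEK, against 1.13, 0.46 and 0.56 under vehicle. All wild-type IIAEK values lay below all wild-type vehicle values, and the second knockout vehicle array was the lowest of the 12. By the dimmer Sox9 probe the wild-type values overlapped. They were -3.04, -2.98 and -1.46 under IIAEK, against -2.10, -2.28 and -1.29 under vehicle.

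Prom1, which encodes the membrane protein CD133, had -1.11, -1.71 and 0.08 in knockout mice under IIAEK, against -0.43, -0.84 and -0.95 under vehicle. In wild-type mice it had -1.93, -1.62 and -0.27 under IIAEK, against -0.93, -0.93 and -0.56 under vehicle. In each genotype the IIAEK arrays of slide 1 were below every vehicle array and the slide 2 array was above them. By the dimmer Prom1 probe this order held in knockout mice but not in wild-type mice. There the dimmer probe gave -3.65, -3.04 and -2.44 under IIAEK, against -2.80, -3.22 and -2.36 under vehicle. The stomach and Brunner's gland levels given above had the order of the brighter probe in each genotype. Over all arrays their correlation with Prom1 was r = 0.79, beside 0.81 for goblet cell markers and -0.76 for villus markers. The part of these tissues in the Prom1 levels was not tested beyond the covariates given below. Tnfrsf19, also called Troy, a Wnt-induced receptor of stem cells, had -1.27, -1.24 and -0.63 in knockout mice under IIAEK, against -1.08, -1.52 and -1.21 under vehicle. In wild-type mice Tnfrsf19 had -0.81, -0.86 and -1.20 under IIAEK, against -0.71, -0.77 and -1.18 under vehicle, which overlapped.

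IIAEK in wild-type mice left all 9 stem cell genes uncalled, with differences from -0.57 for Sox9 to 0.13 for Lgr5. No feature of the array was called in this comparison (0%), and 819 features, or 3.14%, had an unadjusted p below 0.05, none of them a stem cell gene. The smallest p was that of Sox9, whose mean was 0.15 ± 0.26 under IIAEK, against 0.72 ± 0.36 under vehicle (SD, n = 3 each). The difference was -0.57 with a standard error of 0.327 and a 95% interval from -1.28 to 0.15 (limma, unadjusted p = 0.111, adjusted p = 0.999). Sox9 was the only stem cell gene whose wild-type arrays did not overlap between treatments, against 3.69% of all features that were lower without overlap and 9.28% in either direction. By the dimmer Sox9 probe these arrays overlapped, with a difference of -0.60 (limma, unadjusted p = 0.328). Of the 9 genes, 6 lay below 0, against 43.7% of features, with a median of -0.12 beside 0.03 over all features. Leaving out 1 array at a time gave that median from -0.16 to 0.04, the positive value without the third wild-type IIAEK array, and it was -0.01 without the second wild-type vehicle array. With the stomach and pancreatic marker levels as covariates, the Sox9 difference was -0.14, and the part of these tissues in the result was not tested further.

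The Wnt pathway genes around them showed no called member in wild-type mice either. Of 13 other Wnt target genes, 12 lay below 0 under IIAEK, with a median of -0.31, and 3 lower and 1 higher had an unadjusted p below 0.05. These were Myc, a driver of cell growth, at -0.73, the TCF-family factor Lef1 at -1.04, the adhesion receptor Cd44 at -0.98 and the transcription factor Sp5 at 0.28 (limma, adjusted p = 0.999 for each). In the same comparison 9 of 10 stomach and Brunner's gland markers lay below 0 (median -3.18), as did 6 of 6 B cell markers (median -2.02), while 11 of 12 villus markers lay above 0. Lef1 and Cd44 are also expressed by leukocytes, and the part of these tissues in the Wnt target values was not tested beyond covariates: with the stomach and pancreatic levels in the model, 9 of 13 Wnt targets lay below 0 (median -0.10) and 11 of 20 proliferation genes (median -0.06). The Wnt target median was -0.08 within slide 2, -0.44 within slide 1 and -0.14 without the second wild-type IIAEK array. Myc averaged -1.08 ± 0.42 under IIAEK, against -0.35 ± 0.14 under vehicle (SD, n = 3 each). Of 20 proliferation genes, 19 lay below 0, with a median of -0.21 and none at an unadjusted p below 0.05. Wnt ligands and R-spondins (9 tested), Wnt receptors (13 tested) and secreted or feedback Wnt inhibitors (8 tested) had none either, and Lef1, which stands in both lists, was the sole such gene among 16 core components and TCF factors.

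Other niche signals in wild-type mice gave a few single genes. Hes5, a Notch effector, differed by -1.37, the only 1 of 14 Notch pathway genes with an unadjusted p below 0.05. The ligands Bmp2 and Bmp5, which oppose stem cell self-renewal, differed by 0.35 and 0.61, 2 of 20 BMP pathway genes. Ereg, the EGF family ligand epiregulin, averaged -0.22 ± 0.24 under IIAEK, against 0.81 ± 0.39 under vehicle (SD, n = 3 each), and Nrg1 differed by -0.61 and the receptor Erbb2 by 0.39 among 11 EGF family genes. Among 18 other stem signature genes, Mex3a, an RNA-binding protein of slowly cycling Lgr5 cells, differed by -0.76, and Car12, a carbonic anhydrase, by -1.40. Hes5 averaged -4.60 ± 0.12 under IIAEK and -3.23 ± 0.68 under vehicle (SD, n = 3 each), near the lowest levels clear of background. With normexp background correction Hes5 differed by -0.39, Car12 by -0.46, Mex3a by -0.22, Bmp5 by 0.31 and Ereg by -0.85. None of 9 reserve and regeneration genes had an unadjusted p below 0.05, and no adjusted p in these lists was below 0.999 (limma).

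IIAEK in knockout mice gave differences from -0.17 for Prom1 to 0.39 for Sox9, and no stem cell gene was called (0% of all features were). An unadjusted p below 0.05 was reached by 1.91% of features and by none of the 9 genes, and no stem cell gene had groups that did not overlap, against 4.68% of features. Lgr5 had the smallest p: it averaged -0.34 ± 0.28 under IIAEK, against -0.72 ± 0.20 under vehicle (SD, n = 3 each). The difference was 0.38 with a standard error of 0.224 and a 95% interval from -0.11 to 0.87 (limma, unadjusted p = 0.117, adjusted p = 1). Of the 9 genes, 7 lay above 0, against 49.2% of features, and their median was 0.23, beside -0.00 over all features. Without the third knockout IIAEK array that median was 0.02. Tnfrsf19, the median gene with all arrays, gave -0.28 by its dimmer probe.

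The slides gave knockout responses of opposite sign for most of these genes. Within slide 1 (2 IIAEK arrays against 1 vehicle array) the median difference of the 9 genes was -0.33, and within slide 2 (1 against 2) it was 0.71. Ascl2 was called within slide 2, at 1.44 (limma, adjusted p = 0.0410), where 0.977% of features were called and the lone IIAEK array was assumed to vary like the other groups. Within slide 1 the Ascl2 difference was -0.43. Prom1 differed by -0.97 within slide 1 and by 0.97 within slide 2, and Lgr5 by 0.19 and 0.71. The slide 2 IIAEK array is the one with high smooth muscle and proliferation levels. The stomach and Brunner's gland level of knockout mice also differed in opposite directions within the slides. On slide 1 it was -1.80 and -2.05 under IIAEK, against 3.74 under vehicle. On slide 2 it was 4.68 under IIAEK, against -0.80 and -1.68 under vehicle. Over all arrays this level had r = 0.79 with Prom1, 0.63 with Ascl2 and -0.25 with Lgr5. Other lists followed these genes as closely or more so. Ascl2 had r = 0.84 with smooth muscle, 0.78 with proliferation and -0.69 with villus markers. Prom1 had r = 0.81 with goblet cell markers and -0.76 with villus markers. The part of these tissue levels in the responses was not tested within the slides.

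Around these genes, Esrrg, an orphan nuclear receptor of the stem signature list, was the sole pathway gene with an unadjusted p below 0.05 in knockout mice. It averaged -0.82 ± 0.06 under IIAEK, against -1.26 ± 0.05 under vehicle (SD, n = 3 each), a difference of 0.43 (limma, adjusted p = 1). The lists of Wnt ligands, receptors, inhibitors, core components and targets, and of Notch, BMP and EGF family genes, had none. Of 18 other stem signature genes, 15 lay above 0, with a median of 0.23. Without the third knockout IIAEK array 11 lay above 0, with a median of 0.05. The median was 0.54 within slide 2, which holds that array, and -0.05 within slide 1.

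**Figure D2:**
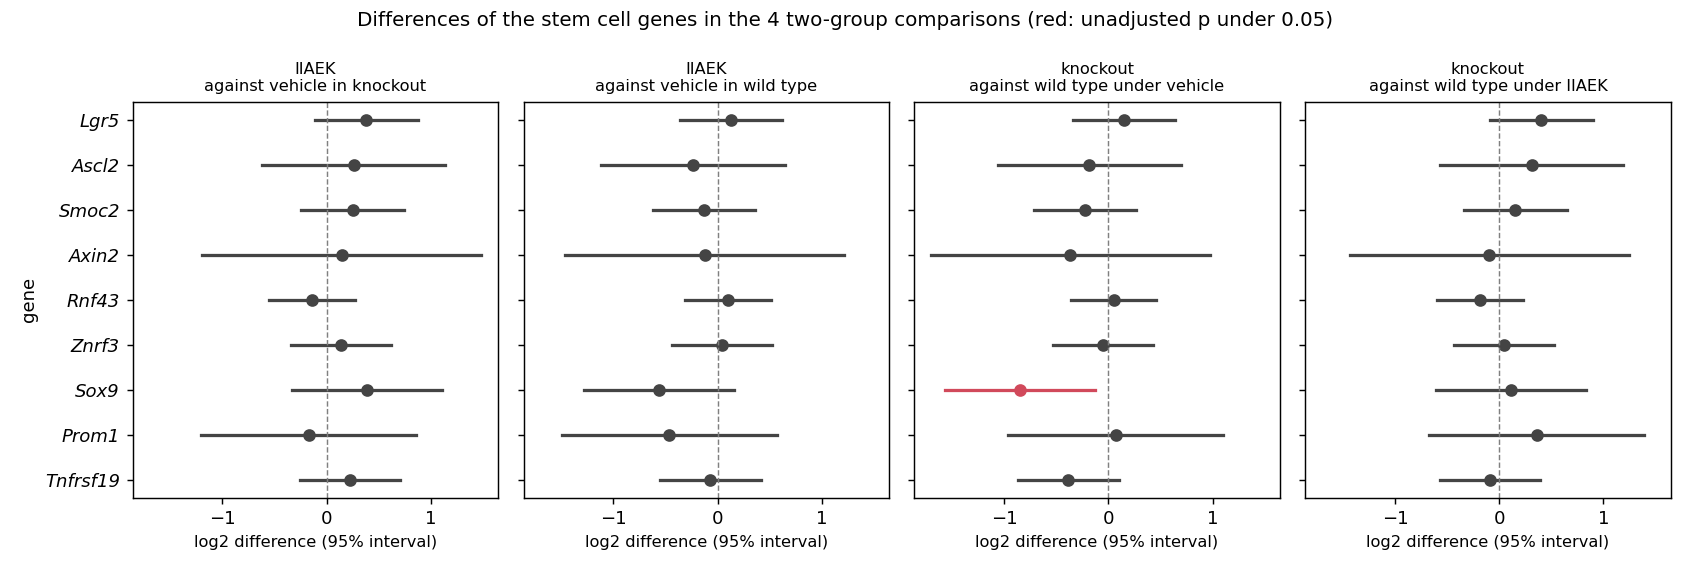
Log2 difference of each of 9 stem cell genes with its 95% interval, for IIAEK against vehicle in knockout and in wild-type mice and for knockout against wild-type mice under vehicle and under IIAEK. The interval of Sox9 under vehicle, from -1.57 to -0.13 and drawn in red, is the only 1 of the 36 drawn that does not include 0.

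The response to IIAEK was not shown to differ between the genotypes for any of the 9 genes. The difference of the responses, knockout minus wild type, ran from -0.24 for Rnf43 to 0.96 for Sox9, and 0% of features were called. An unadjusted p below 0.05 was reached by 1.52% of features and by no stem cell gene. Sox9 had the smallest p, with a difference of 0.96, a standard error of 0.463 and a 95% interval from -0.06 to 1.97 (limma, unadjusted p = 0.0629, adjusted p = 1). It was 0.55 without the second knockout vehicle array, 1.02 within slide 2, 0.42 within slide 1 and 0.56 with the stomach and pancreatic levels as covariates. Of the 9 genes, 8 lay above 0, against 44.1% of features, with a median of 0.29 beside -0.04 over all features. That median was 0.09 without the third knockout IIAEK array. Some pathway gene differences had an unadjusted p below 0.05, and none was called. These were 1.23 for Lef1, 0.89 for Myc, 0.59 for the receptor Notch2, -0.48 for Bmp2 and 1.01 for Mex3a. With normexp background correction that of Mex3a was 0.37.

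Knockout mice under vehicle had less Sox9 signal than wild-type mice under vehicle by the unadjusted test, and no stem cell gene was called, against 0.00766% of features. Sox9 averaged -0.13 ± 0.76 in knockout mice and 0.72 ± 0.36 in wild-type mice (SD, n = 3 each), and the arrays overlapped, as 1 knockout array reached 0.54. The difference was -0.85 with a standard error of 0.327, or 0.556-fold (limma, unadjusted p = 0.0250, adjusted p = 0.993). It was the only 1 of the 9 genes with an unadjusted p below 0.05, against 3.85% of features. The other 8 genes ran from -0.39 for Tnfrsf19 to 0.15 for Lgr5, the median of the 9 was -0.18, beside 0.03 over all features, and none had groups that did not overlap, against 14.4% of features. The median was -0.02 without the third wild-type vehicle array, -0.06 without the second knockout vehicle array and -0.10 without the third.

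The Sox9 difference depended on a few arrays. It was -0.44 without the second knockout vehicle array and -0.64 without the first wild-type vehicle array, which also had the low pancreatic level. Within slide 1 it was -0.26 (1 knockout array against 2 wild-type arrays) and within slide 2 -1.02 (2 against 1). With slide as a block it was -0.79 (limma, unadjusted p = 0.0400), and with the stomach and pancreatic levels as covariates -0.40 (limma, unadjusted p = 0.219). With the same covariates Prom1 differed by 0.65 (limma, unadjusted p = 0.0281), against 0.07 without them, and was not called. The stomach and Brunner's gland markers had a median difference of -3.29 in this comparison, with all 10 lower in knockout mice. The dimmer Sox9 probe gave -0.46 (limma, unadjusted p = 0.452).

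Niche genes between the genotypes under vehicle also gave single genes and no call. The ligand Wnt3, made by Paneth cells, differed by -0.61, Lef1 by -0.98 and the beta-catenin cofactor Pygo2 by -0.47. In the Notch list Notch2 differed by -0.46 and the ligand Dll1 by 0.36. In the BMP list Bmp2 differed by 0.34, Bmp5 by 0.65, and the BMP antagonists Nog and Chrdl1 by -1.06 and -0.49. Areg, the EGF family ligand amphiregulin, differed by 0.77, the BMP co-receptor Rgmb by -0.83, Mex3a by -0.75 and Ly6a, the surface antigen Sca-1, by 0.60 (limma, adjusted p = 0.993 for each of these genes). Several of these genes were dim. Nog averaged -4.71 ± 0.73 in knockout mice and -3.64 ± 0.11 in wild-type mice (SD, n = 3 each), near the lowest levels clear of background. With normexp background correction the differences were -0.10 for Nog, -0.13 for Wnt3, -0.20 for Rgmb, -0.23 for Mex3a and 0.36 for Bmp5. Of 13 other Wnt targets, 11 lay below 0, with a median of -0.34, and the median of 18 other stem signature genes was -0.20. Within slide 1 these medians were -0.02 and 0.01, without the second knockout vehicle array -0.18 and -0.14, and with the stomach and pancreatic levels as covariates -0.05 and -0.07.

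This comparison shares the wild-type vehicle arrays with that of IIAEK in wild-type mice. Mex3a, for example, averaged -3.84 ± 0.19 in knockout mice under vehicle and -3.85 ± 0.30 in wild-type mice under IIAEK, against -3.09 ± 0.29 in wild-type mice under vehicle (SD, n = 3 each). Lef1 ranged from -3.51 to -1.58 over the wild-type vehicle arrays, and its difference under vehicle was the only 1 of 43 pathway gene differences named here that changed sign under an alternative, to 0.09 within slide 2. B cell markers were high on part of those arrays, with a mean over 6 genes of 1.06, 0.35 and -2.64 there, against -2.75 to -1.47 on the other 9 arrays. Their part in the Lef1 values was not tested.

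Under IIAEK, knockout mice differed from wild-type mice by -0.19 for Rnf43 to 0.40 for Lgr5, and no stem cell gene was called, against 0.00766% of features. An unadjusted p below 0.05 was reached by 1.31% of features and by none of the 9 genes. Lgr5 averaged -0.34 ± 0.28 in knockout mice and -0.75 ± 0.41 in wild-type mice (SD, n = 3 each), a difference of 0.40 with a 95% interval from -0.09 to 0.90 (limma, unadjusted p = 0.0984, adjusted p = 1). No stem cell gene had groups that did not overlap, against 3.85% of features. The median of the 9 genes was 0.11, beside -0.01 over all features, and -0.12 without the third knockout IIAEK array. The Lgr5 difference was 0.03 within slide 1 (2 arrays against 2) and 1.15 within slide 2 (1 against 1). Of the pathway genes only Sp5, at -0.28, had an unadjusted p below 0.05.

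No stem cell gene was called for the averaged effects. IIAEK averaged over both genotypes gave Lgr5 the smallest p, at 0.25 with a 95% interval from -0.09 to 0.60 (limma, unadjusted p = 0.137, adjusted p = 1). Prom1 had the largest difference in size, at -0.32 with a 95% interval from -1.05 to 0.41 (limma, unadjusted p = 0.359). That difference was -0.91 within slide 1, 0.63 within slide 2 and -0.06 with the stomach and pancreatic levels as covariates. Ascl2, Axin2, Rnf43, Smoc2, Tnfrsf19, Sox9 and Znrf3 lay within 0.09 of 0. The median of the 9 genes was 0.01, and 0% of features were called. Knockout averaged over both treatments gave Lgr5 0.28, with a 95% interval from -0.07 to 0.63 (limma, unadjusted p = 0.107, adjusted p = 0.999), and a median of -0.04, with 0.0192% of features called. Leaving out 1 array at a time gave that median from -0.14, without the third knockout IIAEK array, to 0.06, without the first. Sox9 was at -0.37 and Prom1 at 0.21 in that average. With the stomach and pancreatic levels as covariates, Sox9 was at -0.12 (limma, unadjusted p = 0.560) and Prom1 at 0.55 (limma, unadjusted p = 0.00821). Neither was called. Without covariates, an unadjusted p below 0.05 was reached by none of the 9 genes in either average, against 2.94% of features for IIAEK and 3.03% for knockout.

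Several pathway genes had an unadjusted p below 0.05 in the averages, and none was called. For IIAEK these were the ligands Wnt5b at 0.38 and Wnt9a at 0.48, the R-spondin receptor Lgr4 at 0.27, Hes5 at -0.85, Ereg at -0.86, Esrrg at 0.41 and the topoisomerase Top2a at -0.42. For knockout they were the kinase Gsk3b at -0.24, Smad1 at -0.25, Areg at 0.49 and Ly6a at 0.44. With normexp background correction the averaged IIAEK differences were 0.23 for Wnt5b, 0.18 for Wnt9a, -0.20 for Hes5 and 0.29 for Esrrg. Ereg averaged 0.26 ± 0.56 in knockout mice under IIAEK, against 0.95 ± 0.48 under vehicle (SD, n = 3 each), beside the wild-type values given above.

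Axin2 differed between the slides. All 5 slide 2 arrays lay between -4.26 and -3.76, and all 7 slide 1 arrays between -3.28 and -2.30. The slide 2 values were near the lowest levels clear of background on those arrays, which ran from -4.90 to -4.25. Over all arrays Axin2 also had r = -0.54 with the pancreatic level, whose part was not tested. The difference, slide 2 minus slide 1, was -1.37 with a standard error of 0.200 (limma, adjusted p = 0.00258), with the groups as terms. Axin2 was the only 1 of 9 stem cell genes called between the slides, against 26.3% of all features, and 5.67% of features lay wholly lower on slide 2. Prom1 differed by 0.73 (limma, adjusted p = 0.0786) and Ascl2 by 0.57 (limma, adjusted p = 0.116) between the slides. This slide comparison was chosen after the Axin2 levels had been seen. The residual SD of Axin2 within groups, 0.85, was larger than that of 95.7% of features, and the 95% interval of its response to IIAEK in wild-type mice ran from -1.46 to 1.22.

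**Figure D3:**
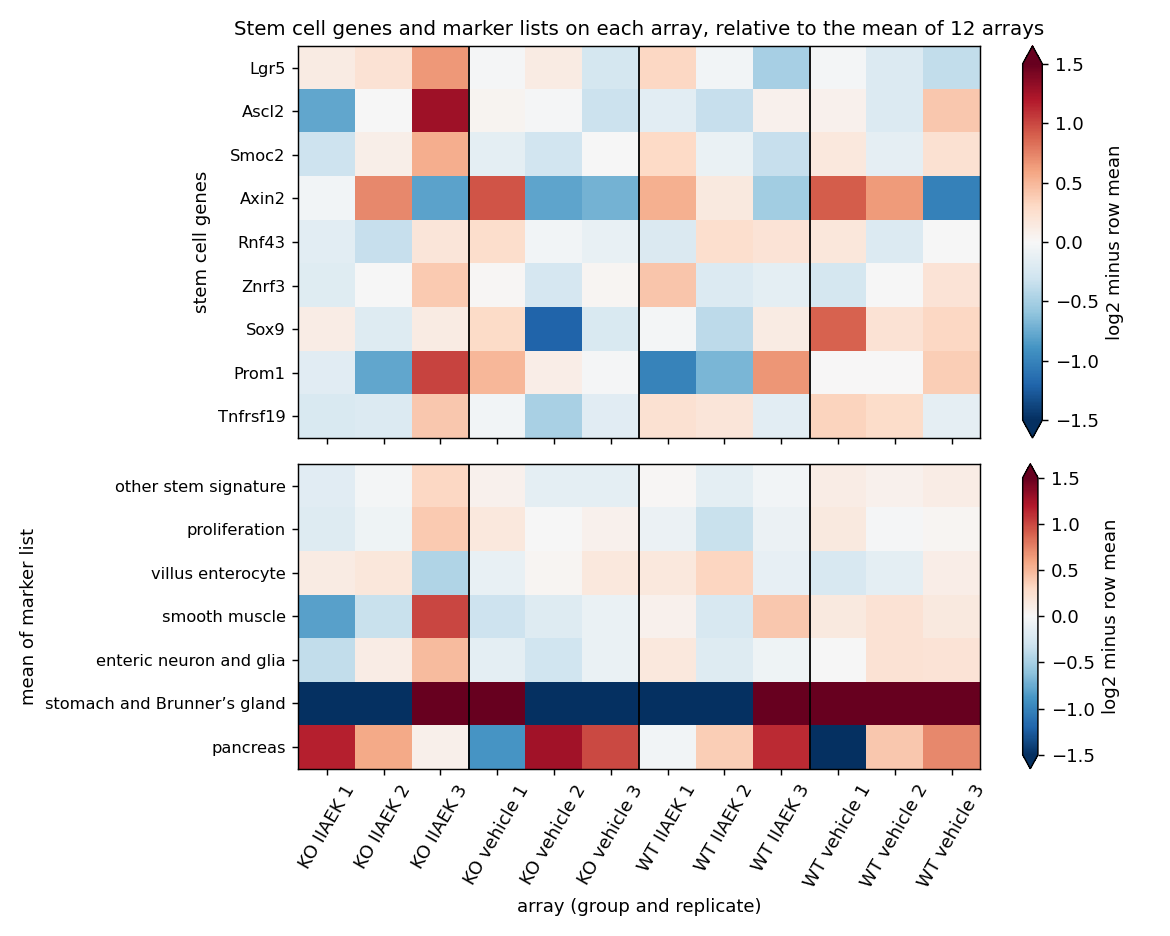
Deviation of each stem cell gene (upper panel) and of the mean of each marker list (lower panel) from its mean over the 12 arrays, in log2 units, with colours saturating at 1.5 in either direction. Columns are arrays by group and replicate; the third knockout IIAEK array is red for Lgr5, Ascl2, Smoc2 and Prom1 and for smooth muscle, and the stomach and Brunner's gland list takes either strongly red or strongly blue values.

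Of the 36 pairs among the 9 genes, 26 had a positive correlation and the median was 0.25. None passed Benjamini-Hochberg adjustment over the 36 pairs, and 5 had an unadjusted permutation p below 0.05. The highest was that of Smoc2 with Znrf3, at r = 0.77 (permutation p = 0.00297, adjusted p = 0.107) and rho = 0.57 (permutation p = 0.0590, adjusted p = 0.384) over 12 arrays. It was 0.49 without the 2 arrays farthest from the Smoc2 median, the third knockout IIAEK array and the first wild-type IIAEK array. It was 0.54 over the 7 arrays of slide 1 and 0.98 over the 5 of slide 2. The Znrf3 probe used here had only r = 0.24 and 0.44 with the other Znrf3 probes. Of the 36 pairs, 24 were positive within slide 1 and 29 within slide 2, where the third knockout IIAEK array is 1 of 5 points. Ascl2 and Smoc2 had r = 0.69 (permutation p = 0.0113, adjusted p = 0.203) and rho = 0.38 (permutation p = 0.227), with r = 0.19 without the third and the first knockout IIAEK arrays, 0.62 within slide 1 and 0.81 within slide 2. The third knockout IIAEK array was the highest of the 12 for 5 of the 9 genes, while 19.4% of all features had their highest value there.

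Different probes of the same gene showed how far a level could be read from a single probe. The 2 Prom1 probes, matched to different transcripts, had r = 0.89 (permutation p = 0.000210, adjusted p = 0.00147) and rho = 0.87 (permutation p = 0.000520, adjusted p = 0.00364), and 0.77 without the 2 farthest arrays. The 2 Smoc2 probes had r = 0.83 (permutation p = 0.00111, adjusted p = 0.00389) and rho = 0.78 (permutation p = 0.00375, adjusted p = 0.0131), and 0.81 without the 2 farthest arrays. Within slide 1 (7 arrays) these correlations were 0.76 and 0.88, and within slide 2 (5 arrays) 0.94 and 0.81. The Sox9 probes had r = 0.31 (permutation p = 0.332, adjusted p = 0.465) and rho = 0.64 (permutation p = 0.0306, adjusted p = 0.0714), with r = 0.58 without the 2 farthest arrays, 0.79 within slide 1 and 0.68 within slide 2. The Tnfrsf19 probes had r = -0.12 (permutation p = 0.712, adjusted p = 0.712) and rho = 0 (permutation p = 1), with r = -0.49 without the 2 farthest arrays, and with 0.37 within slide 1 and 0.30 within slide 2. For IIAEK in knockout mice the brighter Tnfrsf19 probe gave 0.23 and the dimmer -0.28. For knockout against wild type under vehicle they gave -0.39 and 0.24. The 3 pairs of Znrf3 probes lay between 0.24 and 0.44. These are 7 pairs of probes, over which the p-values were adjusted.

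**Figure D4:**
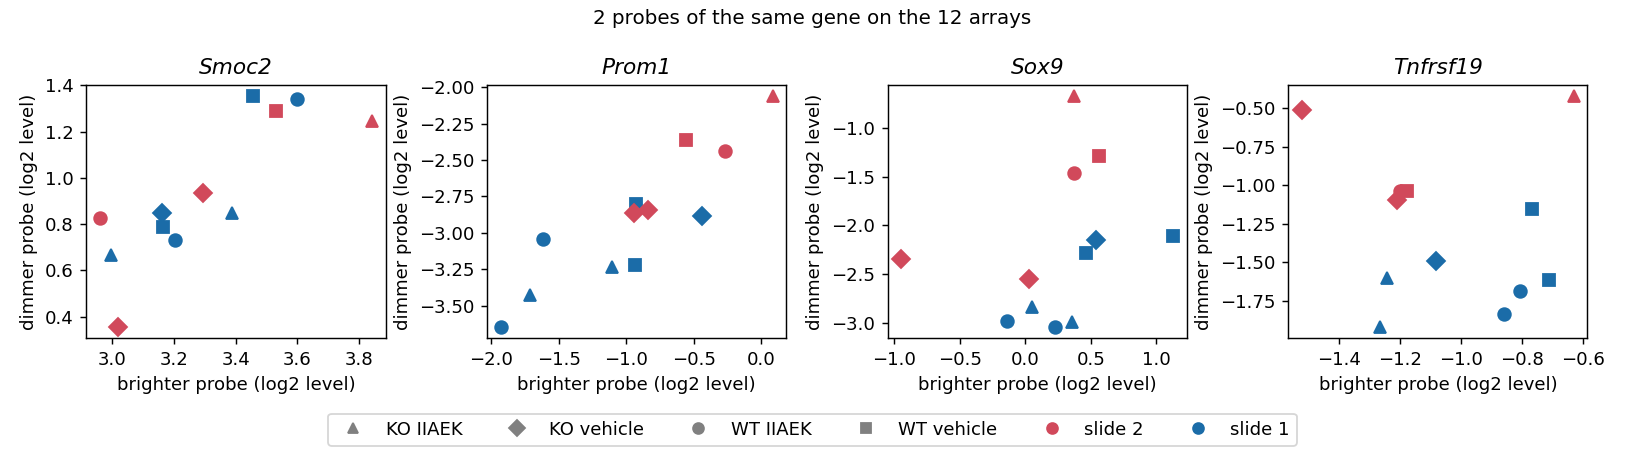
Levels of the brighter and the dimmer probe of Smoc2, Prom1, Sox9 and Tnfrsf19 on the 12 arrays (log2 intensity minus the array's 75th percentile), with shape for group and colour for slide. The points of Smoc2 and Prom1 rise together (r = 0.83 and 0.89), whereas those of Tnfrsf19 do not (r = -0.12).

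Among 15582 other named genes, those whose levels followed Lgr5 most closely over the 12 arrays were C1ra (r = 0.91), Zeb2 (0.90), Zfp114 (0.84), 4930431P03Rik (0.83) and Hcar1 (0.82). For Ascl2 they were Tubb5, Ncapd2, Fyco1, Gm13271 and Slc18a3, each with r = 0.95. Their rank correlations with Ascl2 ran from 0.64 for Slc18a3 to 0.99 for Ncapd2. Several of these genes were dim, with mean levels of -4.22 for both 4930431P03Rik and Hcar1, -2.93 for Zfp114, -3.60 for Gm13271 and -3.31 for Slc18a3. The others named lay between -0.53 for Fyco1 and 3.12 for Tubb5. These are descriptions over arrays that share slides and the composition differences given above. No such list could be made for Olfm4.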

How the data were processed

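Per the file headers, Feature Extraction 10.7.3.1 wrote the deposited scanner files, in which the authors give a processed intensity per spot, background-subtracted and not scaled between arrays. The authors' deposited value table holds log2 values whose making is not stated. On each array it correlated at 0.999996 to 0.999998 with the levels used here after each probe was centred on its median. It served as an alternative, but it is nearly the same data and not an independent check. Control spots and marked outliers were left out, and log2 processed intensities were centred on each array's 75th percentile. Probe accessions were named through a RefSeq table of GRCm38.p6, which covered 32978 of 56583 probes. A probe passed where every array of any group, 3 in each, showed it well above background (32925 probes), which left 26107 features. limma 3.58.1 in R 4.3.3 (lmFit, eBayes with intensity trend) fitted 1 mean per group to all 12 arrays; tests were two-sided, adjusted by Benjamini-Hochberg. The fit was tested on simulated data. No spot was saturated, and the precision is limited by having 3 arrays a group.

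Correlations used 100000 permutations. The 10 genes, the pathway lists and the tests were chosen with earlier results of these data known. Every stem cell gene is described by its levels; differences are named for the smallest p and for unadjusted p below 0.05, with up to 4 genes per pathway list, and the 5 genes most like Lgr5 and Ascl2. Alternatives were normexp background correction with offset 50, quantile normalization, the value table, no filter, the mean of all probes, no intensity trend, slide, replicate number, covariates, fewer arrays and leaving out each array. Deviations of same-numbered arrays correlated above 0.1 in 11 of 18 pairs and not in every pair, so replicate numbers were not used as pairs.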

Additional observations from a re-analysis of the deposited data

How the results depend on the processing

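Under 24 alternatives, 141 recomputed counts of called stem cell genes were 0 except for 1, in knockout mice under IIAEK within slide 2 (Ascl2). The difference with the smallest p in each comparison (Sox9 or Lgr5) kept its sign and its side of the threshold. Part of this was fixed in advance. Fits without intensity trend, with replicate number as a block or on only the groups compared return the same differences by design. These fits can change only the p-values, and the value table nearly repeats the levels used here. Over all 63 differences of the 9 genes, 49 changed sign under at least 1 alternative. Of 43 named pathway gene differences, 1 changed sign (Lef1) and 1 was called under an alternative (Cd44 in wild-type mice within slide 1); these checks, and those of the list medians, were added after seeing the data. Several pathway gene differences, mostly of dim genes, were much smaller with normexp background correction, as given above. In addition, 28 of 141 counts over all features moved by over 1.5 times. The highest of these were 257 features for IIAEK in wild-type mice, 255 in knockout mice, 35 for the difference, 80 and 14 for knockout under vehicle and IIAEK, and 250 and 49 for the averages. The median of the 9 genes moved by more than the spread between replicates in these cases. For IIAEK in wild-type mice it was 0.13 with stomach and pancreatic levels as covariates. For IIAEK in knockout mice it was -0.33 within slide 1 and 0.71 within slide 2. The difference of the responses was -0.13 and 0.85, knockout under IIAEK -0.14 and 0.53, and averaged IIAEK -0.23 and 0.29 within these slides. Knockout under vehicle was 0.11 within slide 1. Leaving out 1 array at a time gave knockout under IIAEK from -0.12 to 0.17. Averaged knockout moved by less than that spread but changed sign, from -0.14 to 0.06 with 1 array left out and to 0.11 within slide 2. The cause was not tested. With replicate number as a block, 0 stem cell genes were called in every comparison. Depth is limited for Axin2, whose probe was not well above background on 1 array.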
